A study of Mus musculus with 2 samples.

Results

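The genes described here are the digestive enzymes of the exocrine pancreas and the factors of the acinar cells that make them. They were read in islet RNA of transgenic mice that overexpress miR-141 and miR-200c, a pair of small regulatory RNAs, and of C57BL/6 control mice. The list holds 33 genes: proteases, lipases, nucleases, a trypsin inhibitor, proteins of the zymogen granule and acinar transcription factors. Members were taken by name, as the probe sets whose only gene symbol is that of a listed gene. Of the 33 genes 29 had such a probe set, and 26 of them reached a floor of 5.76, which is the median over every value of both arrays, on at least 1 of them. These 26 are called the kept members, of 12143 kept genes in all. Prss1, Try4, Try5 and Pnlip had none that names the gene alone. Ptf1a, Nr5a2 and Dnase1 lay below the floor on both arrays.

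The study hybridised islet RNA of male mice aged 6 weeks to Affymetrix expression arrays, 1 per genotype. The transgenic sample is labelled miR-141/200c_overexpression and the control sample Bl6_control. The transgenic sample is titled Ripmir_islets and the control sample C57Bl6_islets. Rip is a usual short form of the rat insulin promoter, which is active in beta cells, but the labels do not spell it out. They do not state the strain of the transgenic mice, the number of lines or the number of mice per sample. With 1 array per genotype no value has a replicate error, no test was possible, and higher and lower describe these 2 arrays. Values are log2 RMA values, and a difference is the transgenic minus the control value, so that 1 is a 2-fold difference.

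Acinar cells form most of the pancreas around the islets. They store digestive enzymes as inactive zymogens in granules and release them into the ducts, and trypsin then activates the other zymogens in the gut. Acinar messenger RNAs are among the most abundant of the organ, and RNA from adhering or broken acinar cells is commonly found in isolated islets. In whole-islet RNA, fewer acinar cells and less RNA per acinar cell cannot be told apart.

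Acinar transcripts gave strong signals in both samples. The means of both arrays lay above 13, near the top of the scale, for 14 of the 26 kept members, in a tissue labelled islets with beta cells as its source. The islet hormone genes were strong as well, with Ins2 at 14.95 on the transgenic and 15.02 on the control array and Gcg at 14.13 and 14.19. Most acinar members were slightly higher in the transgenic sample. Of the 26 kept members 23 had a positive difference, against 54.2% of all kept genes, and the median difference was 0.20, against 0.029 over all kept genes. Of these members 21 lay between 0 and 0.6. One of the 26, Rbpjl, was kept through its transgenic value alone.

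A pair of members stood far from this common level, in opposite directions. Ctrc was 4.70-fold lower and Prss3 was 3.16-fold higher in the transgenic sample. They were the only kept members past 2-fold, 1 in each direction, where 2.51% of all kept genes were past 2-fold on the higher side and 0.511% on the lower side. With a 1.5-fold limit Pla2g1b joined Prss3 on the higher side and Ctrc remained alone on the lower side, against 7.73% and 3.14% of all kept genes.

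**Figure D1:**
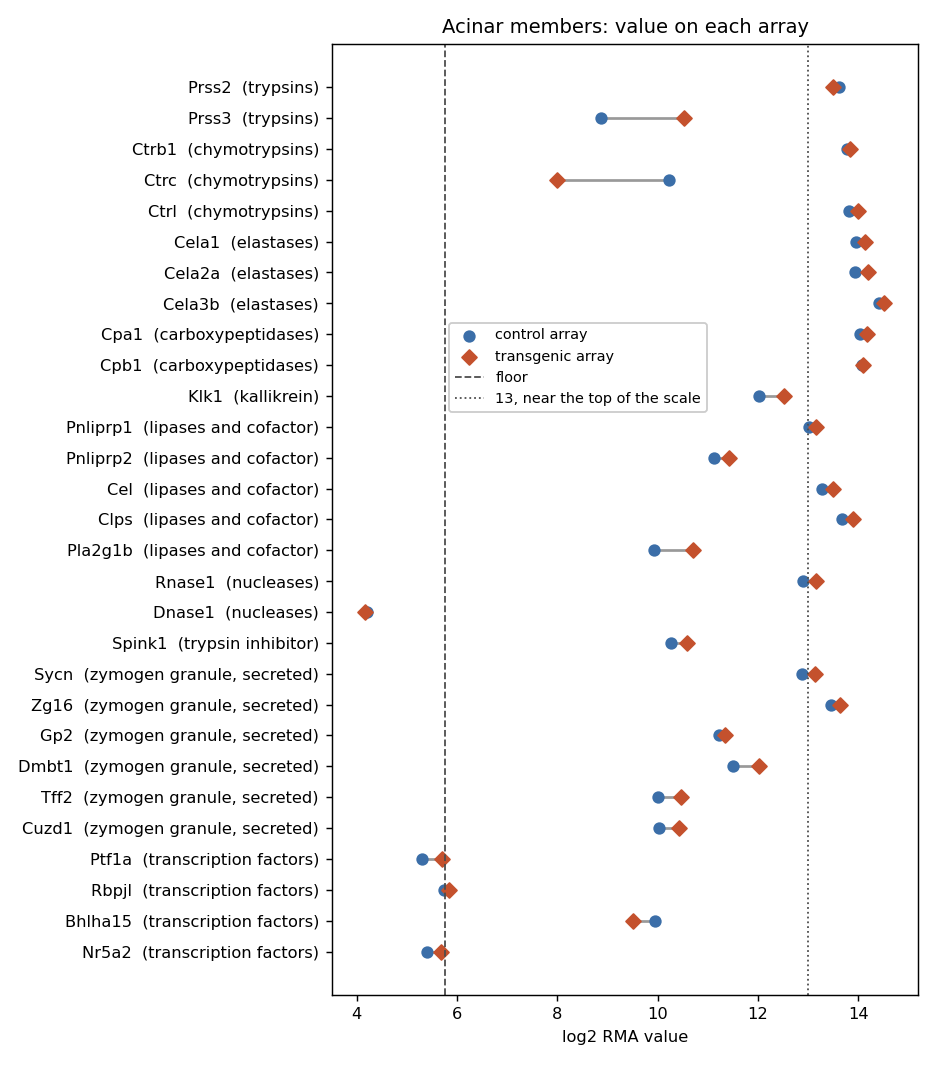
Log2 RMA value (horizontal axis) of the 29 acinar members with a probe set, by role, on the control (circles) and transgenic (diamonds) array, with the floor of 5.76 (dashed) and 13 (dotted). Most pairs nearly coincide, while Prss3 and Ctrc are wide apart in opposite directions.

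The trypsins are serine proteases that cut after lysine and arginine and start the activation of the other zymogens. Prss3, a trypsinogen gene, read 10.53 on the transgenic and 8.87 on the control array, a difference of 1.66. Its single probe set was thus higher than the control by more than any other kept member. Prss2, an abundant trypsinogen, read 13.50 and 13.61 on the probe set with the highest mean, a difference of -0.11. Its 3 other probe sets were on the higher side, from 0.10 to 0.20. All 4 probe sets of Prss2 lay above 13, a range in which arrays are known to compress differences.

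Mouse trypsinogen genes stand together on chromosome 6, in the stretch that also holds the T cell receptor beta genes, and several are near-identical copies. A probe set can then read more than 1 of them. The genes of this stretch that are not members were added after the value of Prss3 was seen. In the GRCm38.p6 gene table the order is 1810009J06Rik, Gm2663, 2210010C04Rik, Try4, Try5, Try10, Prss3, Gm5771, Gm10334, Prss1 and Prss2. Of the 11 probe sets that name any of them 3 were at least 2-fold higher in the transgenic sample, against 2.51% of all kept genes. The value of Prss3 prompted the choice of these genes, so the count is not independent of it.

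One of these was the probe set of Prss3. A second names Gm10334, Gm5771, Prss1 and Prss3 together and read 11.80 on the transgenic against 10.32 on the control array, a difference of 1.47. The third names Gm2663 and 1810009J06Rik and read 7.31 against 5.94, a difference of 1.38. The probe set shared by Try4 and Try5 read 13.90 and 13.62, a difference of 0.28. The 3 probe sets of 2210010C04Rik differed by 0.14, 0.023 and 0.16.

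The trypsin genes did not share 1 difference, and the level of the probe set went along with its size. The 7 probe sets with a mean above 13 ran from -0.11 to 0.28, and 3 of the 4 with a lower mean were past 2-fold. The fourth, a probe set of 2210010C04Rik at 10.01 and 9.85, was not. The part of compression at the top of the scale in the smaller differences was not measured or tested.

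**Figure D2:**
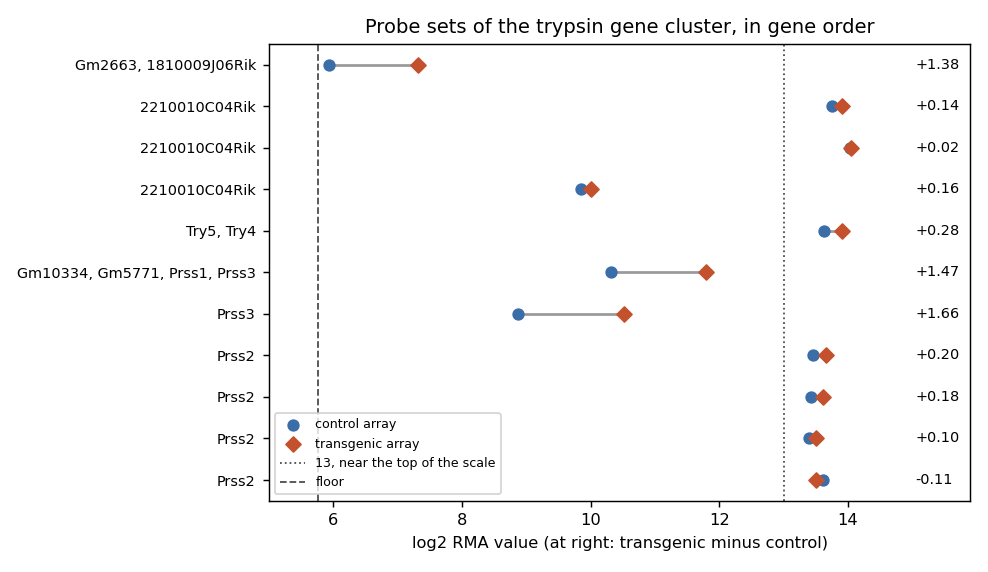
Log2 RMA value of the 11 probe sets that name genes of the trypsin stretch, in gene order from top to bottom, on the control (circles) and transgenic (diamonds) array, with each difference at the right. The probe sets for Prss3, for Gm10334, Gm5771, Prss1 and Prss3, and for Gm2663 and 1810009J06Rik are 1.66, 1.47 and 1.38 higher in the transgenic sample, and those above 13 (dotted line) differ little.

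The stretches before the starts of these genes show which copies resemble each other. They are given for Prss3, for the 3 genes that share a higher probe set with it, and for Prss2, which was not past 2-fold. Each is the 200 bases before the RefSeq transcription start in GRCm38.p6, read 5′ to 3′ along the gene. Capitals mark CACCTG on either strand (read as CAGGTG on the other), an E-box of the kind that PTF1 binds, and TATAAA, the core of a TATA box, on the gene's own strand. The windows are chr6:41377614-41377813 (- strand) for Prss3, chr6:41446098-41446297 (- strand) for Gm10334, chr6:41458730-41458929 (+ strand) for Prss1, chr6:41392156-41392355 (+ strand) for Gm5771 and chr6:41521576-41521775 (+ strand) for Prss2.
Prss3: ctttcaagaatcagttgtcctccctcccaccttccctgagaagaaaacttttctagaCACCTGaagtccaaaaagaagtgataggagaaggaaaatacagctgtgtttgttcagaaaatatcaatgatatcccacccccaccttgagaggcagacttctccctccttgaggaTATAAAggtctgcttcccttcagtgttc
Gm10334: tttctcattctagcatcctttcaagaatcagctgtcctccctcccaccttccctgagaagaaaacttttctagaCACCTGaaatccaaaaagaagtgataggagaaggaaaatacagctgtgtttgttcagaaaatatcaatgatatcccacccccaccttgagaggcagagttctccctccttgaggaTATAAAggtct
Prss1: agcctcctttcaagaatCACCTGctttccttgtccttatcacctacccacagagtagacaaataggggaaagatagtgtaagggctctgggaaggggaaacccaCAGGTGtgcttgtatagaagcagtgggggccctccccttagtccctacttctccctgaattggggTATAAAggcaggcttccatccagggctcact
Gm5771: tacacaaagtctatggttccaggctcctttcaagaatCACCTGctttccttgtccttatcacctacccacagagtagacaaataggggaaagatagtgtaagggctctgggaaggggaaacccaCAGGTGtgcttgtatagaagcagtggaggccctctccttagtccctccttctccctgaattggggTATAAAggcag
Prss2: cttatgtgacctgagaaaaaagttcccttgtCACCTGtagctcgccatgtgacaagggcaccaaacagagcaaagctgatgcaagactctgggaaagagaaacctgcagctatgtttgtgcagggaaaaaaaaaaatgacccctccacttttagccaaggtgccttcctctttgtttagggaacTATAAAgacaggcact

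The copies fall into pairs. Over the 250 bases before the start, Prss3 and Gm10334 shared 226 bases in a global alignment, or 90.4%, and Prss1 and Gm5771 shared 90.4% too. The other 8 pairs among these 5 genes shared from 56.8% to 62%. All percentages are of 250 bases, also where the windows of a pair are offset. What unrelated windows would share was not measured. In the 200 bases shown, Prss3 and Gm10334 have 1 E-box, at position -143 and -126 from the annotated start. Prss1 has 2, at -183 and -96, and Gm5771 has 2, at -163 and -76. Prss2 has 1, at -169. Each of the 5 windows of 200 bases holds 1 TATAAA. It stands at -28 in Prss3, -11 in Gm10334, -31 in Prss1, -11 in Gm5771 and -16 in Prss2. Within each pair of copies these sites are shifted alike, as the annotated starts lie at different points of the shared sequence.

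The E-box letters were more frequent before the acinar genes than before genes at large. They occurred in 15 of 28 promoter windows of 250 bases, or 53.6%, against 17.2% of all 32851 windows of that length. The 28 windows belong to the 26 members with a promoter entry, which are not the same genes as the 26 kept members. TATAAA on the gene's strand was found in 7 of the 28 and in 7.59% of all. Ctrc, Try5, Clps, Spink1, Zg16, Dmbt1 and Tff2 had no entry. A match of letters is a description of the sequence and does not show binding.

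The chymotrypsins cut after large hydrophobic residues. Ctrc encodes chymotrypsin C, which in other mammals acts on trypsinogen and takes part in both its activation and its breakdown. The GRCm38.p6 gene table, which is of the C57BL/6J strain, lists mouse Ctrc as a transcribed pseudogene, and lists the other 32 members as protein coding. Since the labels give no strain for the transgenic mice, a difference of strain and an effect of the transgene cannot be told apart. This holds for Ctrc, for Prss3 and for every other gene. Ctrc read 7.996 on the transgenic and 10.23 on the control array, a difference of -2.23. Both values lay above the floor of 5.76. Ctrc has 1 probe set, so no second reading of the gene was available.

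The other chymotrypsin genes did not move with Ctrc. Ctrb1, the main chymotrypsinogen, read 13.83 and 13.78 (transgenic first), and Ctrl, chymotrypsin-like protease, read 14.00 and 13.81. Both lay above 13.

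Ctrc was set against the level that the other members shared. The 25 other kept members had a median difference of 0.21, and Ctrc minus that median was -2.45. Among the 11 other members between the floor and 13 the median was 0.40, and Ctrc minus it was -2.63. The lowest of the 25 others was Bhlha15, at -0.44. Over all kept genes 3 of 12143 were as far on the lower side, Ctrc included. Of the 2372 kept genes with a mean within 0.5 of that of Ctrc none but Ctrc itself was as low, and the central 95% of these ran from -0.66 to 0.81.

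Prss3 was less extreme in the same view. It lay 1.47 above the median of the 25 other kept members and 1.33 above that of the 11 others between the floor and 13. Over all kept genes 67 were as far on the higher side, Prss3 included. Of 1859 genes of like mean 3 were as high, again with Prss3 among them, and the central 95% ran from -0.66 to 0.70.

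**Figure D3:**
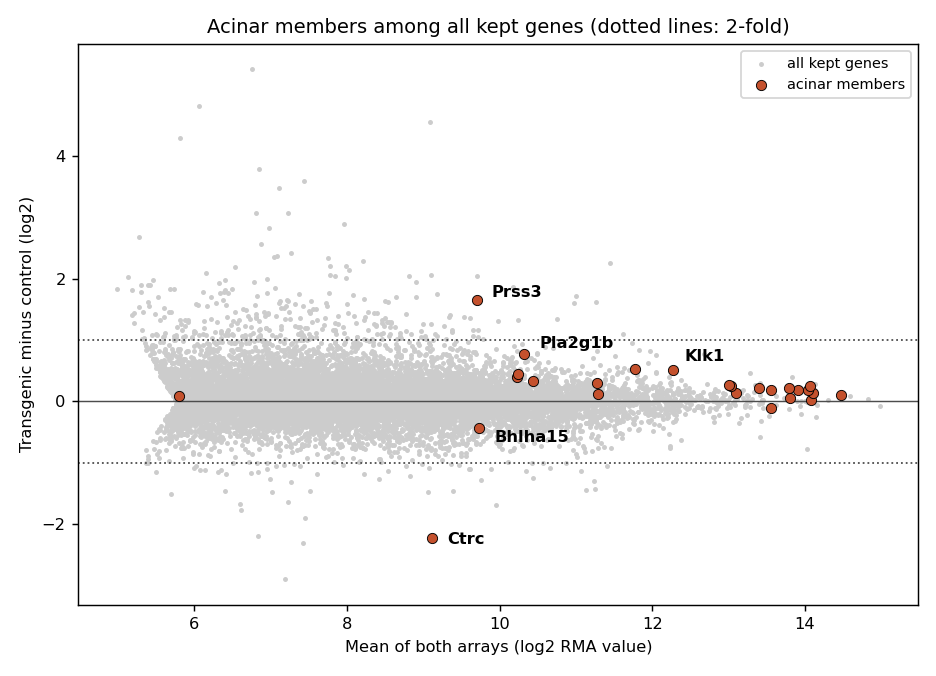
Difference between the arrays (vertical axis, log2) against the mean of both arrays (horizontal axis, log2 RMA value) for all 12143 kept genes (grey) and the 26 kept acinar members (orange). Ctrc at -2.23 and Prss3 at 1.66 lie outside the 2-fold lines, and the members above 13 lie in the narrow right end of the cloud.

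The elastases form another group of proteases among the members. All 3 elastase genes were slightly higher in the transgenic sample, where 54.2% of all kept genes had a positive difference. Cela1 read 14.13 and 13.95 (transgenic first), Cela2a 14.19 and 13.93, and Cela3b 14.52 and 14.42. The 3 other probe sets of Cela3b gave differences from 0.15 to 0.16. The carboxypeptidases remove residues from the end of a peptide. Cpa1, carboxypeptidase A1, read 14.17 and 14.04, and Cpb1, carboxypeptidase B1, read 14.09 and 14.06. None of these 5 genes was past 1.5-fold.

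Klk1 encodes tissue kallikrein, a serine protease of the pancreas, kidney and salivary gland. It read 12.52 on the transgenic and 12.01 on the control array, a difference of 0.51. Its 4 probe sets did not agree in sign. A second bright one differed by 0.54, while the 2 dimmer ones, at 8.26 and 8.45 and at 8.64 and 8.91, differed by -0.19 and -0.26. Over the 11 kept proteases, 9 differences were positive, against 54.2% of all kept genes, and the median was 0.13.

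The lipases digest dietary fat. All 5 kept genes of that group were on the higher side, from 0.14 to 0.78, against 54.2% of all kept genes. Pla2g1b, the pancreatic phospholipase A2, read 10.70 and 9.93, a difference of 0.78. Its other probe set at the floor gave 0.33, and 2 more lay below the floor. Pnliprp2, a lipase-related protein that also acts on galactolipids, read 11.43 and 11.13, and its other probe set differed by 0.24. Pnliprp1, a related protein, read 13.16 and 13.02. Cel, carboxyl ester lipase, read 13.51 and 13.28. Clps, the colipase that anchors pancreatic lipase to fat droplets, read 13.90 and 13.68, and its other probe set differed by 0.27. The median of the lipase group was 0.23, close to the 0.20 of all kept members, but Pla2g1b lay above this common level. Pla2g1b was 0.59 above the median of the 25 other kept members. It was 0.45 above that of the 11 others between the floor and 13. Of 1292 genes of like mean 13 were as high, Pla2g1b included.

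Rnase1, pancreatic ribonuclease, read 13.15 and 12.90, a difference of 0.26. Dnase1, the secreted deoxyribonuclease, read 4.16 and 4.20, below the floor on both arrays. Spink1, the inhibitor that protects acinar cells from trypsin activated too early, read 10.59 and 10.27, a difference of 0.33. The inhibitor therefore lay close to the median of the members between the floor and 13, which was 0.36, while Prss3 was far above it.

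All 6 granule and secreted proteins were on the higher side, against 54.2% of all kept genes, with a median of 0.33. Dmbt1, a scavenger receptor protein of mucosal surfaces, differed furthest, at 12.03 and 11.50 or 0.52. Tff2, a trefoil peptide, read 10.46 and 10.01, and Cuzd1, a zymogen granule membrane protein, read 10.42 and 10.02. The other 3 genes of the group differed less. Sycn (syncollin) read 13.14 and 12.88, with its other probe set at 0.38. Zg16, a lectin of the granule, read 13.64 and 13.46, with its other probe sets at 0.21 and 0.34. Gp2, the main glycoprotein of the granule membrane, read 11.34 and 11.22 and had the smallest difference of the 6, 0.12.

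**Figure D4:**
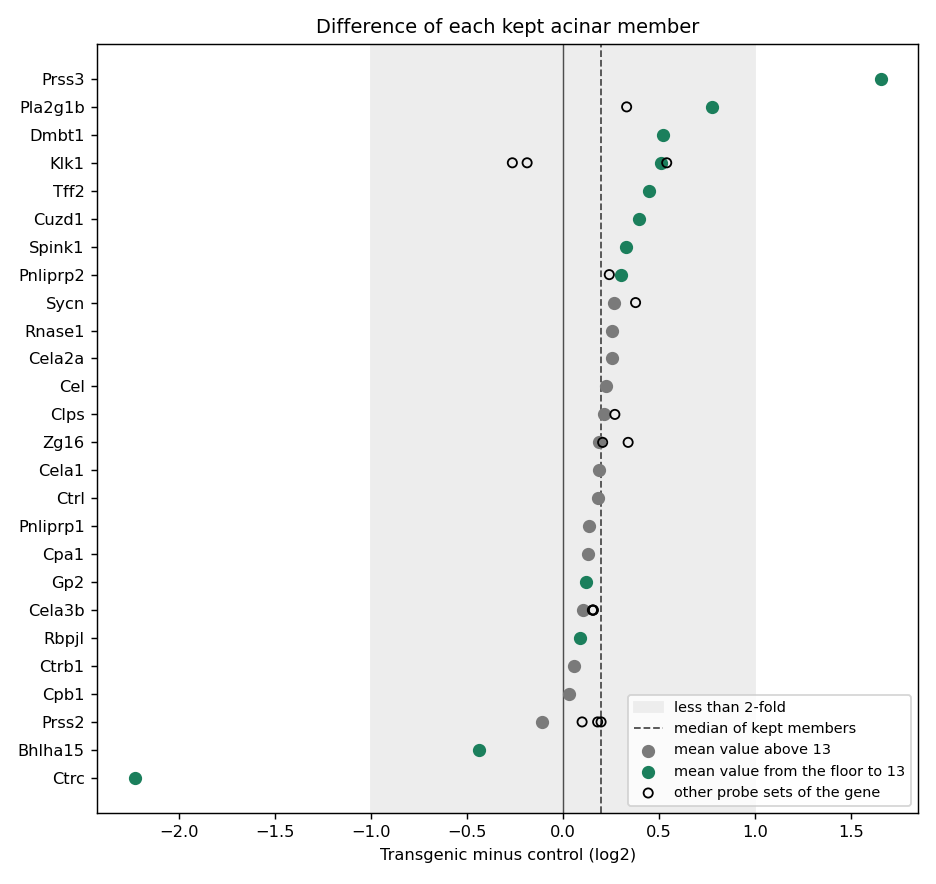
Transgenic minus control difference (log2) of the 26 kept acinar members, in order, with the mean value above 13 in grey and from the floor to 13 in green, other probe sets of the same gene as open circles, and the median of 0.20 as a dashed line. Ctrc and Prss3 alone lie outside the shaded zone of less than 2-fold, and for Klk1 and Prss2 other probe sets have the opposite sign.

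Of the 4 transcription factors 3 lay at or below the floor. Ptf1a, the DNA-binding subunit of the PTF1 complex that switches on enzyme genes, read 5.70 on the transgenic and 5.30 on the control array, below the floor on both. Rbpjl, its pancreas-specific partner, read 5.84 and 5.75, at the floor. Nr5a2, a nuclear receptor of acinar cells, read 5.68 and 5.40 on its brightest probe set, below the floor. A value below the floor does not show that the RNA was absent.

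Bhlha15, known as MIST1, organises the secretory apparatus of acinar cells. It read 9.51 and 9.95, a difference of -0.44, or 1.35-fold lower, and its other probe set lay below the floor. It was therefore the only kept member besides Ctrc and the chosen probe set of Prss2 with a negative difference. Among all 12143 kept genes 776 were as far on the lower side, Bhlha15 included, so that a difference of this size was not particular to it. Of 1836 genes of like mean 123 were as low. Bhlha15 minus the median of the 25 other kept members was -0.65. Against the 11 others between the floor and 13 it was -0.84.

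The size of the difference varied with the level of the member. The 14 members above 13 ran from -0.11 to 0.27, with a median of 0.18. The 12 from the floor to 13 had a median of 0.36, and without Ctrc and Prss3 the 10 others ran from -0.44 to 0.78 with that same median of 0.36. Of 41 probe sets of members at the floor, some of them from the same gene, 36 had a positive difference. Of all kept genes, each read from 1 probe set, 54.2% were positive. Of 8 kept members with other probe sets at the floor 6 had the same sign in all of them, and Klk1 and Prss2 did not.

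Other genes of acinar cells were listed from general knowledge, and their medians lay below the 0.36 of the members from the floor to 13. Of 10 kept further enzymes and acinar-enriched genes 8 were positive and none was past 2-fold in either direction, with a median of 0.22. Gatm, an enzyme of creatine synthesis, read 9.42 and 8.65 (0.77), and Gnmt, a methyltransferase, read 7.31 and 8.08 (-0.77). Of 12 kept genes of the acinar secretory apparatus 8 were positive, or 66.7%, with a median of 0.15. Of all kept genes 54.2% were positive. Cckar, the receptor through which cholecystokinin triggers enzyme release, was 2.13-fold higher, at 7.05 on the transgenic and 5.96 on the control array, and was the only gene of that list past 2-fold. Its control value was close to the floor, and 68 of the 2184 kept genes of like mean were as high, Cckar included. Of all kept genes 2.51% were at least 2-fold higher.

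Markers of other cells differed between the same samples. Of all kept genes 54.2% were positive and 2.51% were at least 2-fold higher. Of 16 kept macrophage markers 15 were positive, with a median of 0.83 and a mean level of 8.65 on the transgenic and 7.90 on the control array. Mpeg1, C1qb and C1qc were past 2-fold, with differences of 1.25, 1.15 and 1.14. Of 14 kept stellate cell markers 11 were positive (median 0.57, mean level 8.50 and 7.98), with Col1a2 at 2.42-fold and Postn at 2.08-fold. A dimmer probe set of Col1a2, at 6.01 on the transgenic and 5.34 on the control array, differed by 0.67, and another lay below the floor. Of 12 kept ductal markers 10 were positive (median 0.17), with Prom1 at 2.15-fold. The part of these cells in the acinar values was not tested.

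The other lists were closer to 0. The 15 kept islet endocrine genes had a median of -0.0083, with 7 positive and none past 2-fold, and the urocortin gene Ucn3 differed furthest at -0.81. The medians of the endothelial and lymphocyte lists were 0.045 and 0.040, with 11 genes each, and Pecam1 (0.88) and Cd2 (0.63) differed furthest among them. Spiked poly-A control RNAs gave a stronger signal on the transgenic array in all 24 of their probe sets (median 1.51), and the hybridisation controls did so in all 18 of theirs (median 0.40), which is above the acinar median of 0.20. The labels do not state the amounts of RNA used. None of this was tested as a source of the acinar differences.

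**Figure D5:**
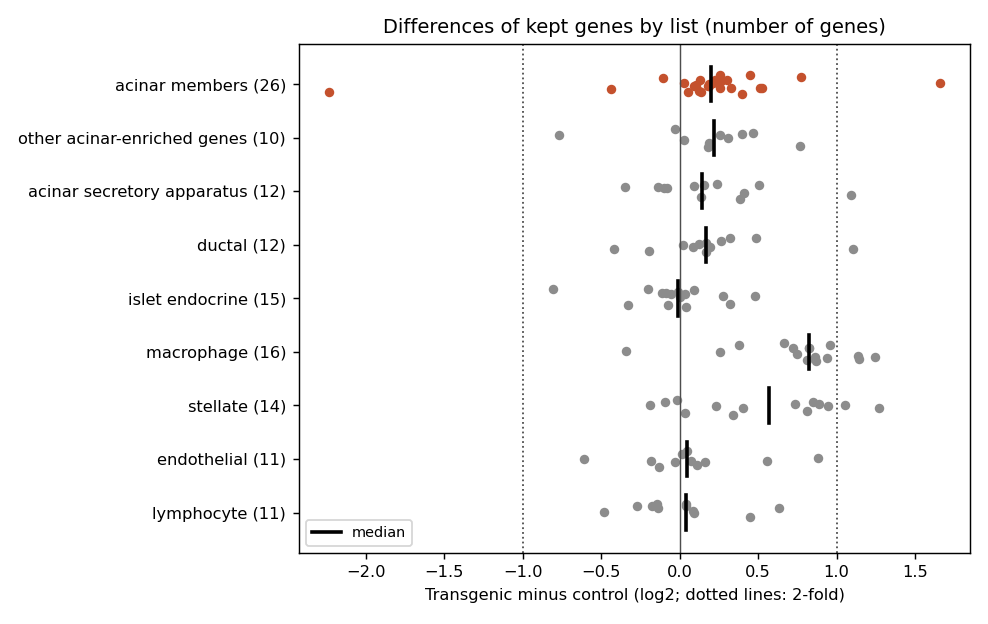
Transgenic minus control difference (log2) of the kept genes of each list, 1 point per gene spread vertically for legibility, with a black bar at the median and dotted lines at 2-fold. The acinar members centre on 0.20 with Ctrc and Prss3 far out on either side, while macrophage markers centre on 0.83.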

How the data were processed

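Total RNA of islets, extracted with Trizol and labelled with biotin, was read on 1 Affymetrix array per genotype. The authors deposited log2 values per probe set, made with RMA in Affymetrix Expression Console, per the submitters' processing notes. RMA subtracts background, equalises the arrays' distributions and combines the probes. No version is stated in the labels. The arrays' number limits the precision.

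Of 45101 probe sets 34945 had 1 gene symbol in the platform table, and 34741 of these were updated by Entrez Gene identifier to GRCm38.p6. A gene was read from its brightest probe set by mean and was kept if a value reached the floor of 5.76. The limit for a difference was 2-fold. No test was run. The functions were tested on simulated data with a known shift.

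All listed members with a probe set are named. Of every other list, kept genes past 2-fold are named, otherwise the one furthest from 0. Gnmt, the islet hormone genes and the further trypsin genes were chosen after their values were seen. Members, lists and rules were chosen with earlier results of these data known. Alternatives were the mean over probe sets, no _s, _x or _a probe sets, other floors, a second quantile normalization, a lowess trend (span 0.3), a 1.5-fold limit and changes of the members compared. Promoter sequences came from RefSeq (GRCm38.p6) and were aligned with Biopython 1.88. Python 3.11.15, pandas 2.3.3 and statsmodels 0.14.6 were used.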

Additional observations from a re-analysis of the deposited data

Results flagged for a closer look

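A pair of probe sets that each name several genes, and were not read for any member, were higher on the transgenic array by more than 2-fold. The one for Gm10334, Gm5771, Prss1 and Prss3 had a log2 difference of 1.47. The one for Gm2663 and 1810009J06Rik, which names no listed gene, had one of 1.38. Which of the named genes gave the signal was not tested.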

How the results depend on the processing

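The median of the kept acinar members stayed positive under its 9 alternatives, from 0.16 after a second quantile normalization to 0.36 without members above 13. Ctrc and Prss3 have 1 probe set each, above the stricter floor on both arrays, so only the second quantile normalization and the lowess trend were able to move their differences. They gave -2.26 and -2.25 for Ctrc and 1.64 and 1.65 for Prss3. The distance of Ctrc from the median of the other members ran from -2.63 to -2.37, and that of Prss3 from 1.33 to 1.56. Leaving out members above 13 and comparing only with members up to 13 are the same comparison for these distances. These alternatives for Prss3, and the settings that leave out Prss3 or compare only with members up to 13, were chosen after seeing the data. With a 1.5-fold limit 2 members were higher, and without Ctrc 0 members were 2-fold lower. Over all genes the 2-fold counts of 305 higher and 62 lower became 939 and 381 with a 1.5-fold limit, and 168 and 39 with a floor at the 75th percentile. With the mean over probe sets 38 were lower.

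The differences hold for 1 array per genotype. Arrays are known to compress differences near the top of their scale, which was not measured here, and 13 is a set limit. Probe sets of near-identical trypsin genes are not specific to 1 gene. No paired analysis was possible because each group has 1 sample.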

Other observations

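Amylase, which digests starch, has no probe set that names a single gene of its pancreatic cluster. The probe set shared by Amy2a1, Amy2a2, Amy2a3, Amy2a4 and Amy2a5 read 14.38 on the transgenic and 14.37 on the control array, a difference of 0.0081, near the top of the scale. Amy1, the salivary and liver form, read 6.45 and 6.14, a difference of 0.31, while a probe set shared by Amy1 and Rnpc3 differed by -0.10. The probe set shared by Cela3a and Cela3b read 14.44 and 14.27, a difference of 0.16.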
